A study of Mus musculus with 16 samples.

Results

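The genes described here act in mitosis: they drive entry into it, build the spindle, attach and separate the chromosomes and divide the cell. They were chosen by name, as a list of 57 genes drawn up with earlier results of these data known, and 54 of them had a row in the expression table with exactly 1 gene symbol, out of 22180 genes so measured. Ccnb1, Ccnf and Ncapg had no such row and are not described. The data are liver transcript levels from arrays of 8 transgenic C57BL/6J mice killed at 18 months of age. MYC/REG3A mice (labelled MYC+/+, REG3A+/+) carried a c-MYC transgene and a REG3A transgene, and MYC mice (MYC+/+, REG3A-/-) carried only the c-MYC transgene. The c-MYC transgene, shared by all 8 mice, is expressed in liver under woodchuck hepatitis virus control. The promoter of the REG3A transgene is not given in the sources used here, and no mouse without MYC was among the samples.

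Tumour and non-tumour tissue were dissected from the liver of every mouse, and the 16 arrays fell into 4 groups of 4: MYC/REG3A tumours, MYC/REG3A non-tumour livers, MYC tumours and MYC non-tumour livers. Every level below is a log2 value made by the authors with RMA, which equalises the arrays' distributions, so that a change says how a gene moved against the rest of the array. A difference of 1 on this scale is a factor of 2. Array medians over all rows lay between 4.90 and 4.97. The summed level of 8 hepatocyte markers was 15.33 to 15.59 in MYC/REG3A tumours, 15.54 to 15.63 in MYC/REG3A non-tumour livers, 15.27 to 15.49 in MYC tumours and 15.45 to 15.58 in MYC non-tumour livers, on the log2 scale. The tumours of MYC/REG3A mice 2 and 4 stood apart from the others. Over all genes, the SD of the tumour change within the mouse was 0.29 in mouse 2 and 0.36 in mouse 4, against 0.51 to 0.60 in the other 6 mice. Some markers of non-hepatocyte liver cells were also highest in these 2 tumours, as given with the markers below.

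In a resting liver almost no hepatocyte divides, and the genes of mitosis are kept low until a cell enters the cycle. Their products then accumulate late in the cycle, when cyclin B and CDK1 drive the cell into mitosis, and many are destroyed again by the anaphase-promoting complex as the chromosomes part. Many of these genes are held down in resting cells by the DREAM complex and are switched on later by B-MYB, FOXM1 and NF-Y, acting through CCAAT boxes and a promoter word called the cell cycle genes homology region, TTTGAA and its variants.

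Most mitosis genes were higher in tumours than in non-tumour liver of the same mouse, in both genotypes. In MYC/REG3A mice 41 of the 54 genes rose and 0 fell, where 4.04% of all genes measured rose and 2.34% fell. In MYC mice 45 rose and 1, the securin gene Pttg1, fell, where 10.4% of all genes rose and 9.54% fell. These calls are at an adjusted p under 0.05 in limma with the mouse as a block, and 4 mice per genotype stand behind every value. The median change of the 54 genes was 1.27 in MYC/REG3A mice and 1.17 in MYC mice on the log2 scale, beside -0.014 and -0.022 for all genes. There were 41 genes that rose in both genotypes, 4 (Melk, Kif15, Kif18a and Spc25) that passed the test only in MYC mice, and 8 that passed in neither. The number of calls in MYC/REG3A mice depended on single animals, for these genes and for all genes. Without mouse 1, 21 of the 54 genes passed, beside 0.978% of all genes called in either direction. Without mouse 3 it was 14, beside 0.649%, and without mouse 4 it was 25, beside 3.17%. With all 4 mice it was 41, beside 6.38%. The median change was 1.01 to 1.43 with any 1 of the 4 left out. Without mice 2 and 4 together, 30 genes passed, beside 5.26% of all genes, and the median change was 1.52. In bulk tissue, more dividing cells and more RNA per cell cannot be told apart.

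The direction was shared by nearly every animal. There were 46 of the 54 genes higher in the tumour in all 8 mice, against 9.08% of all genes. The levels of the 4 tumours and the 4 non-tumour livers did not overlap, with tumours higher, for 45 genes in MYC/REG3A mice (7.57% of all genes) and for 47 genes in MYC mice (10.7% of all genes). With tumours lower, they did not overlap for 0 genes in MYC/REG3A mice (6.04% of all genes) and for 1, Pttg1, in MYC mice (10.1%). A change of at least 1 on the log2 scale was reached by 31 genes in each genotype. The smallest of these changes was that of Smc4 in MYC/REG3A mice, at 1.01, which ranked 319th among the changes of all 22180 genes. In MYC mice it was that of Ndc80, at 1.08, which ranked 484th. No filter on low values was applied, since 23 of the 50 genes that would have passed one were above the array median in fewer than 4 of the 8 non-tumour livers.

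**Figure D1:**
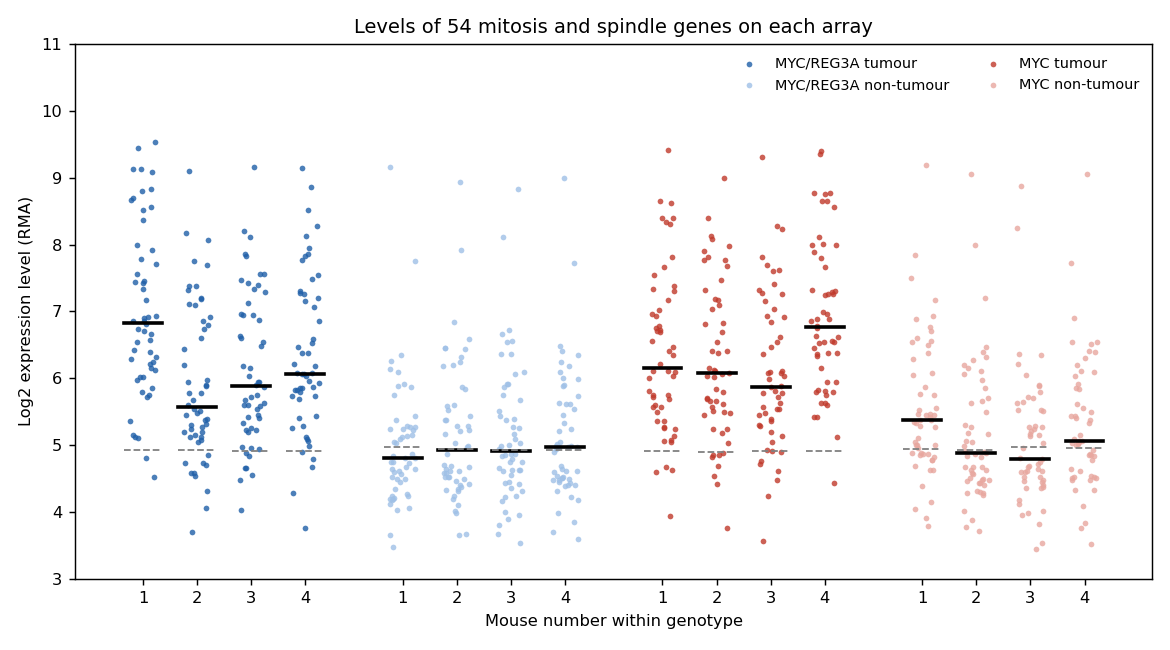
Log2 levels (vertical axis) of the 54 mitosis and spindle genes on each of the 16 arrays (horizontal axis, by group and mouse), with 1 point per gene, a black bar at the median of the 54 genes and a dashed line at the array's median over all rows. The black bars lie between 5.57 and 6.83 in tumours and between 4.80 and 5.37 in non-tumour livers, where most are near the dashed line.

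The tumours of a group differed in how high these genes stood. The median level of the 54 genes was 6.09 ± 0.54 in MYC/REG3A tumours, 4.90 ± 0.07 in MYC/REG3A non-tumour livers, 6.22 ± 0.38 in MYC tumours and 5.03 ± 0.26 in MYC non-tumour livers (SD, n = 4 each). The median change of the 54 genes within a mouse was 1.97, 0.69, 0.99 and 1.17 in MYC/REG3A mice 1 to 4, and 0.84, 0.97, 0.98 and 1.69 in MYC mice 1 to 4. MYC/REG3A mouse 1 had the largest change of all 8 mice for 34 genes and MYC mouse 4 for 12 genes. In the tumours themselves, MYC/REG3A tumour 1 was the highest of its group for 49 of the 54 genes and tumour 2 the lowest for 39. MYC tumour 4 was the highest of its group for 46 genes and tumour 3 the lowest for 33. MYC/REG3A tumour 4 had a smaller change than tumour 3 over all genes, by the SD above, yet a larger median change of the mitosis genes. Among non-tumour livers, MYC mouse 1 was the highest of its group for 41 genes. The tumours of MYC/REG3A mouse 1 and MYC mouse 4 also differed from the other tumours in circadian clock genes. Arntl was 8.49 and 8.63 in them, against 5.36 to 7.42 in the others, and Dbp was 6.72 and 6.83, against 8.39 to 9.62. Cry1 did not set them apart. Between tumour and non-tumour liver, 0 of 11 clock genes passed the test in either genotype. Whether clock state bears on the mitotic levels was not tested.

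**Figure D2:**
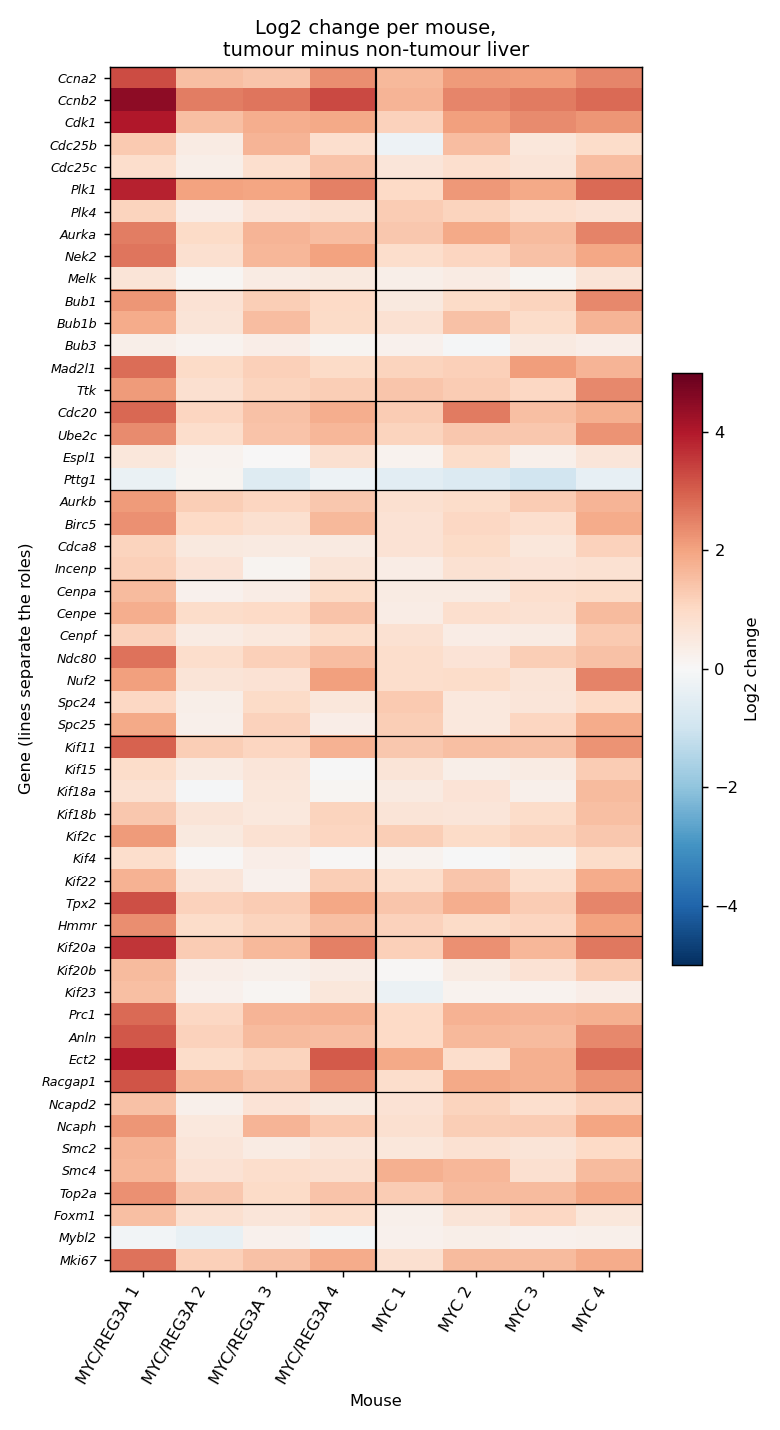
Log2 change of each of the 54 genes (rows, in roles separated by lines) between tumour and non-tumour liver of each mouse (columns), with red for higher in the tumour and blue for lower. The MYC/REG3A mouse 1 column, with a median of 1.97, and the MYC mouse 4 column, with a median of 1.69, are the darkest, and Pttg1 is blue in all mice but MYC/REG3A mouse 2.

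The promoters of these genes share words that the choice of the list did not use. RefSeq windows of 300 bases (250 before the start of transcription to 50 after it, build GRCm38.p6) were matched for 45 of the 54 genes, with 48 windows in all. The words were searched on both strands. CCAAT, the word bound by NF-Y, stood in 34 of the 48 windows (70.8%), against 37.4% of all 32851 windows in the RefSeq table, and 2 or more copies stood in 47.9%, against 11.7% of all windows. TTTGAA stood in 35 of the 48 (72.9%, against 17.9%). A TTTGAA or TTTAAA lying between 50 bases before and 50 after the start was found in 66.7%, against 8.28% of all windows. The E-box CACGTG, the word that MYC and MAX bind, was at about the level of all windows, in 3 of the 48 (6.25%, against 7.15%). The word TTCCCGC, its variant TTCGCGC, the word TTGCCGC or its variant TTGGCGC, which resemble E2F sites, stood in 20.8% of the windows, against 9.57% of all windows. The median GC content of the windows was 58.8%, against 52.7% for all windows, and no allowance was made for it. These are matches of letters in a window and do not show that a factor binds there.

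The promoters of 5 genes with large changes, from mitotic entry (Ccnb2 and Cdk1), the kinases (Plk1), anaphase (Cdc20) and chromosome untangling (Top2a), are shown with those of the 2 genes with the lowest mean of both genotypes' changes, Pttg1 and Mybl2. Capitals mark the word CCAAT (read as ATTGG on the opposite strand), the word TTTGAA (read as TTCAAA on the opposite strand), the word TTTAAA and the E2F-like words. Each reads 5′ to 3′ along the gene, with the start of transcription after base 250. The windows lie at chr9:70421505-70421804, minus strand for Ccnb2, chr10:69352863-69353162, minus strand for Cdk1, chr7:122159185-122159484, plus strand for Plk1, chr4:118437294-118437593, minus strand for Cdc20, chr11:99024140-99024439, minus strand for Top2a, chr11:43425932-43426231, minus strand for Pttg1 and chr2:163054385-163054684, plus strand for Mybl2.
Ccnb2: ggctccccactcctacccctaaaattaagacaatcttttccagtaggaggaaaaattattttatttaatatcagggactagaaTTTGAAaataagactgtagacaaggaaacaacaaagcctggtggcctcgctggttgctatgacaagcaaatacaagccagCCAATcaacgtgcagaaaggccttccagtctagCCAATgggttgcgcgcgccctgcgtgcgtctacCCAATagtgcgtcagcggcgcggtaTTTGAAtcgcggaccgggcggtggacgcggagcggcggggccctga
Cdk1: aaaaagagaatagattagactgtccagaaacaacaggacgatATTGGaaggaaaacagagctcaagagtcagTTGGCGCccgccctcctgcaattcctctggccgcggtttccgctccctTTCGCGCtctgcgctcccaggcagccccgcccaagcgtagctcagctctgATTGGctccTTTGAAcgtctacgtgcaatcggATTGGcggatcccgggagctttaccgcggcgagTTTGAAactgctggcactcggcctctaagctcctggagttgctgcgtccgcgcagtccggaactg
Plk1: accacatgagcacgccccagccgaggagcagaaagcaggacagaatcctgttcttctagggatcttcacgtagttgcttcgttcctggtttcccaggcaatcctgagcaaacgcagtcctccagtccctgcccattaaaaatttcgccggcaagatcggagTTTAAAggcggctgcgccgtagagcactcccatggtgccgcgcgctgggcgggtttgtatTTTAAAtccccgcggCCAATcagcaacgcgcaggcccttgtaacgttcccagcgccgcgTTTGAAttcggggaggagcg
Cdc20: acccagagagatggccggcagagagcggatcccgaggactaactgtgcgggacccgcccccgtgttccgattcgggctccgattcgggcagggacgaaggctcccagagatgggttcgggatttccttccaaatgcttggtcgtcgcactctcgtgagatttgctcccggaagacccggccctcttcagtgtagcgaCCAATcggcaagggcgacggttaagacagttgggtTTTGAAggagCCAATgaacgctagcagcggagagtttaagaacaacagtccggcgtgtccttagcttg
Top2a: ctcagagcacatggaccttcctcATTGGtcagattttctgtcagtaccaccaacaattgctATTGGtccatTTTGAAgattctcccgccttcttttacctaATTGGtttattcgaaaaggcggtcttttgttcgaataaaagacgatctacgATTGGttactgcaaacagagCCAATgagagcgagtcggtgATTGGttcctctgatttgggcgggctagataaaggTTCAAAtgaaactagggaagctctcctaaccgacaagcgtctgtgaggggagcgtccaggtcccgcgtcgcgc
Pttg1: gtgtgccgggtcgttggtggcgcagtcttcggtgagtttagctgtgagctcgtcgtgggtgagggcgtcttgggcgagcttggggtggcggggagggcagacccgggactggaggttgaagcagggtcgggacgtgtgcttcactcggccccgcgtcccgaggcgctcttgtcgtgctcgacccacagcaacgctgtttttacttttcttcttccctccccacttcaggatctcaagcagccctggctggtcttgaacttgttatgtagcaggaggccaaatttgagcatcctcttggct
Mybl2: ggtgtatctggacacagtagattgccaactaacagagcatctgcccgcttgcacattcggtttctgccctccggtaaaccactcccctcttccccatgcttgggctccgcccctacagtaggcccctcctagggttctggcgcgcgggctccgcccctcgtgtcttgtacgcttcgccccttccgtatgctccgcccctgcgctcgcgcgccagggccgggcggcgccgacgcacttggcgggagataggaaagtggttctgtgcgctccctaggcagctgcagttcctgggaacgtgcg
The Ccnb2 window held 3 copies of CCAAT, at 87, 54 and 21 bases before the start, and a TTTGAA just after it. Top2a held 6 copies of CCAAT and 2 of TTTGAA. The windows of Pttg1 and Mybl2 held 0 of the words searched, as did those of Mad2l1 and Nuf2, which rose in both genotypes. The window of Melk, which passed the test only in MYC mice, also held 0. Ect2, Racgap1, Anln, Aurka and Kif11 had larger changes than Top2a in both genotypes, and their windows are not shown. Ccna2, Kif20a and Tpx2 also had larger changes, and no window was matched for them.

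Of the 5 genes measured among the cyclins, CDK1 and its activating phosphatases, the engine of mitotic entry, 4 rose in each genotype. Ccnb2, cyclin B2, is a partner of CDK1 and had the largest change of the 54 genes in both genotypes. Ccnb2 had log2 levels of 9.54, 8.17, 8.20 and 8.86 in the tumours of MYC/REG3A mice 1 to 4, against 5.05, 5.60, 5.51 and 5.55 in their non-tumour livers. In MYC mice, Ccnb2 had levels of 8.63, 8.40, 8.23 and 9.36 in the tumours, against 6.92, 5.97, 5.65 and 6.51 in the non-tumour livers. Each tumour stood above every non-tumour liver of its genotype. Ccnb2 rose by 3.27 (SE 0.294, adjusted p = 0.00372) on the log2 scale in MYC/REG3A tumours and by 2.39 (SE 0.294, adjusted p = 0.00142) in MYC tumours. As a factor this was 9.61 in MYC/REG3A tumours and 5.24 in MYC tumours, which ranked Ccnb2 2nd and 27th among the changes of all 22180 genes. Cdk1 is the kinase itself. Cdk1 had log2 levels of 9.12, 7.69, 7.86 and 8.13 in the tumours of MYC/REG3A mice 1 to 4, against 5.14, 6.20, 6.06 and 6.24 in their non-tumour livers. In MYC mice, Cdk1 had levels of 8.34, 8.13, 8.28 and 8.77 in the tumours, against 7.17, 6.07, 5.91 and 6.55 in the non-tumour livers. The Cdk1 groups did not overlap in either genotype, and the lowest level of all was in the non-tumour liver of MYC/REG3A mouse 1. Cdk1 rose by 2.29 (SE 0.366, adjusted p = 0.0128) on the log2 scale in MYC/REG3A tumours and by 1.96 (SE 0.366, adjusted p = 0.00637) in MYC tumours. Ccna2, cyclin A2, which acts in S phase and early mitosis, rose by 2.13 in MYC/REG3A tumours and 2.08 in MYC tumours. Cdc25c, a phosphatase that activates CDK1, rose by 0.87 in MYC/REG3A tumours and 0.90 in MYC tumours. Its relative Cdc25b did not pass the test. Cdc25b had log2 levels of 6.13, 5.40, 6.63 and 5.80 in the tumours of MYC/REG3A mice 1 to 4, against 4.81, 4.97, 4.95 and 4.97 in their non-tumour livers. In MYC mice, Cdc25b had levels of 5.27, 6.54, 5.81 and 6.33 in the tumours, against 5.52, 4.98, 5.24 and 5.43 in the non-tumour livers. Cdc25b had a difference of 1.07 (SE 0.273, adjusted p = 0.0521) between tumour and non-tumour liver in MYC/REG3A mice and of 0.70 (SE 0.273, adjusted p = 0.111) in MYC mice. The Cdc25b groups were apart in MYC/REG3A mice and overlapped in MYC mice, where tumour 1 was lower than its own non-tumour liver.

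The mitotic kinases rose as a group, 4 of 5 in MYC/REG3A tumours and 5 of 5 in MYC tumours. Plk1, polo-like kinase 1, acts on centrosomes, kinetochores and the dividing cell's midzone. Plk1 had log2 levels of 9.14, 7.38, 7.39 and 8.27 in the tumours of MYC/REG3A mice 1 to 4, against 5.28, 5.37, 5.43 and 5.73 in their non-tumour livers. In MYC mice, Plk1 had levels of 7.54, 7.67, 7.60 and 8.65 in the tumours, against 6.54, 5.49, 5.72 and 5.83 in the non-tumour livers. Plk1 rose by 2.59 (SE 0.338, adjusted p = 0.00813) on the log2 scale in MYC/REG3A tumours and by 1.97 (SE 0.338, adjusted p = 0.00456) in MYC tumours. MYC/REG3A tumour 1 and MYC tumour 4 were the highest of their groups, and no group overlapped its non-tumour liver. Aurka, Aurora A, matures the centrosomes and the spindle poles. Aurka had log2 levels of 7.79, 6.19, 6.95 and 6.86 in the tumours of MYC/REG3A mice 1 to 4, against 5.25, 5.22, 5.26 and 5.33 in their non-tumour livers. In MYC mice, Aurka had levels of 6.72, 7.17, 6.84 and 7.99 in the tumours, against 5.37, 5.27, 5.27 and 5.50 in the non-tumour livers. Aurka rose by 1.69 (SE 0.241, adjusted p = 0.00966) on the log2 scale in MYC/REG3A tumours and by 1.83 (SE 0.241, adjusted p = 0.00181) in MYC tumours. The 8 non-tumour livers lay within 5.22 to 5.50, a narrow range beside that of the tumours. Nek2, which helps to part the centrosomes, rose by 1.78 in MYC/REG3A tumours and 1.34 in MYC tumours, and Plk4, the kinase of centriole duplication, by 0.73 in MYC/REG3A tumours and 0.99 in MYC tumours. Melk had a smaller change. Melk had a difference of 0.40 (SE 0.109, adjusted p = 0.061) between tumour and non-tumour liver in MYC/REG3A mice and of 0.36 (SE 0.109, adjusted p = 0.0447) in MYC mice. The Melk groups were barely apart in MYC/REG3A mice, with a lowest tumour of 4.736 against a highest non-tumour liver of 4.734. MYC/REG3A tumour 1, at 5.36, was the highest there. In MYC mice the Melk levels of tumours and non-tumour livers overlapped.

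The spindle checkpoint holds back the separation of chromosomes until all are attached, and 4 of its 5 genes rose in each genotype. Mad2l1 encodes MAD2, which binds and restrains CDC20. Mad2l1 had log2 levels of 8.56, 7.20, 7.56 and 7.15 in the tumours of MYC/REG3A mice 1 to 4, against 5.75, 6.25, 6.37 and 6.19 in their non-tumour livers. In MYC mice, Mad2l1 had levels of 7.67, 7.47, 7.62 and 7.88 in the tumours, against 6.56, 6.28, 5.51 and 6.20 in the non-tumour livers. Mad2l1 rose by 1.48 (SE 0.294, adjusted p = 0.0244) on the log2 scale in MYC/REG3A tumours and by 1.52 (SE 0.294, adjusted p = 0.00718) in MYC tumours. All 8 tumours lay above all 8 non-tumour livers for Mad2l1. Ttk, the MPS1 kinase that starts the checkpoint signal, rose by 1.32 in MYC/REG3A tumours and 1.53 in MYC tumours. The kinase Bub1 rose by 1.28 in MYC/REG3A tumours and 1.24 in MYC tumours, and Bub1b, which encodes the BUBR1 subunit of the inhibitor of the anaphase-promoting complex, by 1.25 in MYC/REG3A tumours and 1.22 in MYC tumours. Bub3, the partner that carries BUB1 and BUBR1 to kinetochores, was the exception. Bub3 had log2 levels of 9.45, 9.10, 9.16 and 9.15 in the tumours of MYC/REG3A mice 1 to 4, against 9.16, 8.93, 8.83 and 9.0 in their non-tumour livers. In MYC mice, Bub3 had levels of 9.41, 9.0, 9.31 and 9.39 in the tumours, against 9.19, 9.06, 8.88 and 9.05 in the non-tumour livers. Bub3 had a difference of 0.24 (SE 0.0916, adjusted p = 0.166) between tumour and non-tumour liver in MYC/REG3A mice and of 0.23 (SE 0.0916, adjusted p = 0.111) in MYC mice. The Bub3 levels of tumours and non-tumour livers overlapped in both genotypes.

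The genes that release the chromosomes at anaphase divided. Cdc20 activates the anaphase-promoting complex. Cdc20 had log2 levels of 8.80, 6.92, 7.13 and 7.82 in the tumours of MYC/REG3A mice 1 to 4, against 5.92, 5.84, 5.67 and 5.99 in their non-tumour livers. In MYC mice, Cdc20 had levels of 7.31, 7.91, 7.04 and 7.80 in the tumours, against 6.05, 5.31, 5.52 and 6.03 in the non-tumour livers. Cdc20 rose by 1.81 (SE 0.282, adjusted p = 0.0123) on the log2 scale in MYC/REG3A tumours and by 1.79 (SE 0.282, adjusted p = 0.00337) in MYC tumours. All 8 tumours lay above all 8 non-tumour livers. Ube2c, the enzyme that hands ubiquitin to that complex, rose by 1.59 (SE 0.233, adjusted p = 0.0104) in MYC/REG3A tumours and by 1.51 (SE 0.233, adjusted p = 0.00307) in MYC tumours. Espl1 encodes separase, the protease that cuts cohesin. Espl1 had a difference of 0.40 (SE 0.155, adjusted p = 0.162) between tumour and non-tumour liver in MYC/REG3A mice and of 0.49 (SE 0.155, adjusted p = 0.0543) in MYC mice. Pttg1 encodes securin, which holds separase inactive until anaphase. Pttg1 had log2 levels of 7.44, 8.06, 7.47 and 7.49 in the tumours of MYC/REG3A mice 1 to 4, against 7.76, 7.92, 8.12 and 7.73 in their non-tumour livers. In MYC mice, Pttg1 had levels of 7.33, 7.32, 7.28 and 7.31 in the tumours, against 7.85, 8.0, 8.25 and 7.72 in the non-tumour livers. The 4 MYC tumours lay close together and below all their non-tumour livers, while MYC/REG3A tumour 2 stood above the other 3 tumours of its group, inside the range of the non-tumour livers. Pttg1 had a difference of -0.27 (SE 0.131, adjusted p = 0.279) between tumour and non-tumour liver in MYC/REG3A mice and of -0.64 (SE 0.131, adjusted p = 0.00905) in MYC mice. Within mice, the change of Pttg1 was -0.33, 0.14, -0.65 and -0.24 in MYC/REG3A mice, against -0.52, -0.67, -0.97 and -0.42 in MYC mice, so that it was negative in all but MYC/REG3A mouse 2. Pttg1 was the 1 gene of the 54 that fell in either comparison.

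**Figure D3:**
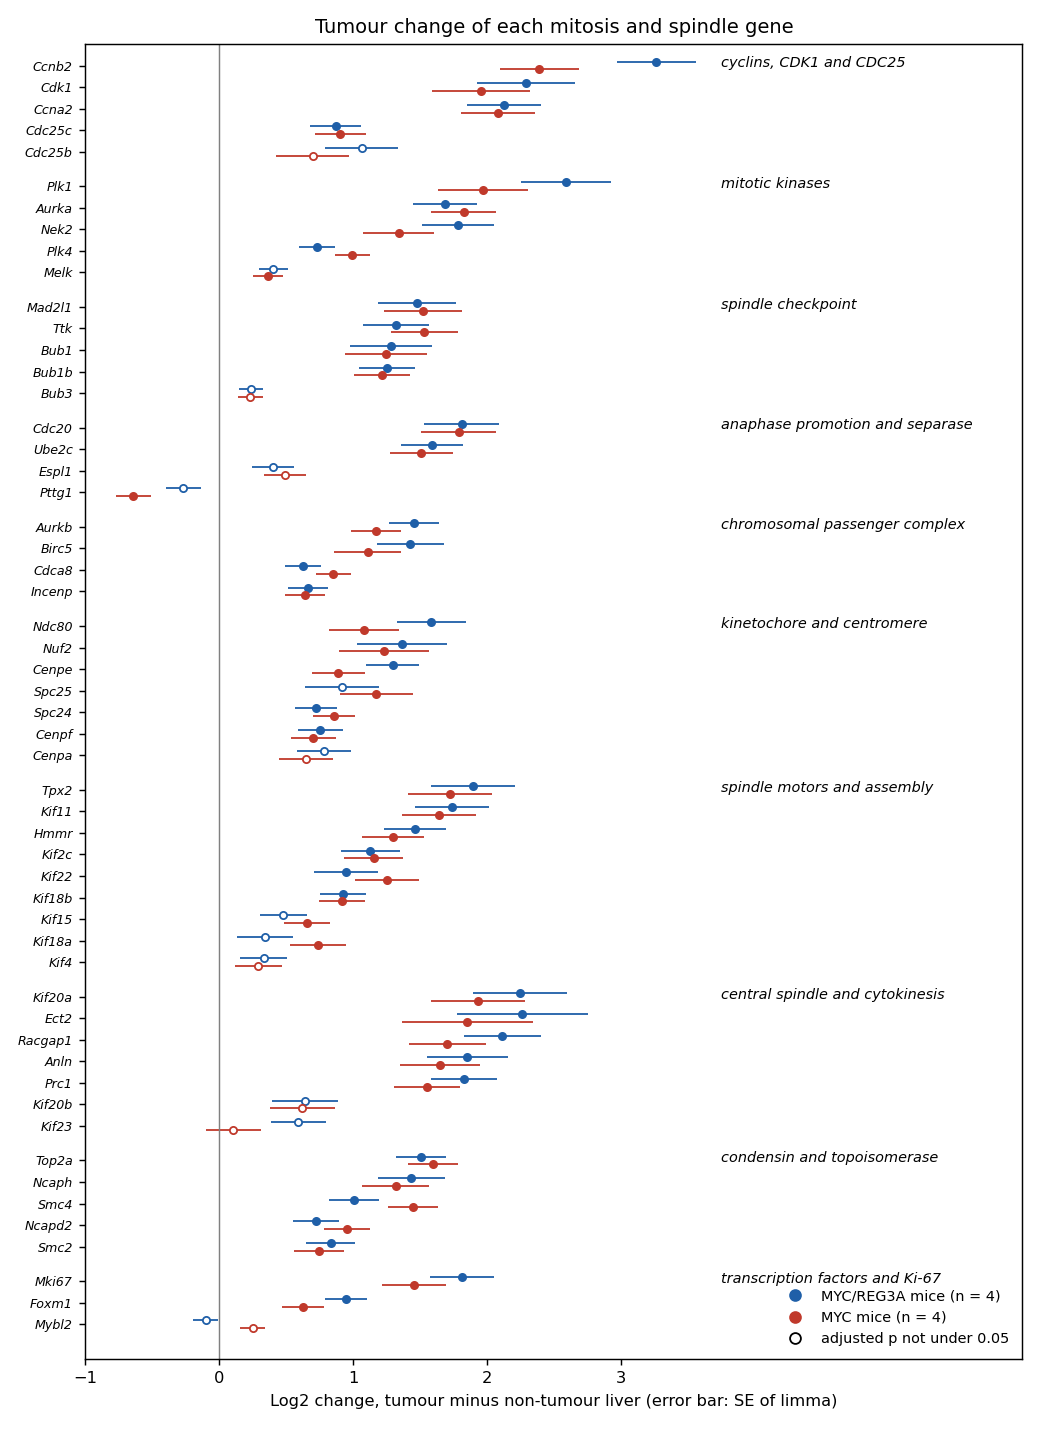
Change between tumour and non-tumour liver for each of the 54 genes (log2, horizontal axis), with the limma estimate and its SE for MYC/REG3A mice and for MYC mice, filled where the adjusted p was under 0.05. Ccnb2 lies farthest to the right, at 3.27 in MYC/REG3A mice and 2.39 in MYC mice, and Pttg1 farthest to the left, at -0.27 in MYC/REG3A mice and -0.64 in MYC mice.

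The chromosomal passenger complex, which corrects faulty attachments and then marks the midzone, rose whole: Aurkb, Birc5, Cdca8 and Incenp passed the test in both genotypes. Aurkb is its kinase, Aurora B. Aurkb had log2 levels of 8.0, 7.10, 6.95 and 7.26 in the tumours of MYC/REG3A mice 1 to 4, against 5.87, 5.86, 5.87 and 5.90 in their non-tumour livers. In MYC mice, Aurkb had levels of 7.38, 7.04, 7.31 and 7.99 in the tumours, against 6.60, 6.11, 6.05 and 6.30 in the non-tumour livers. Aurkb rose by 1.45 (SE 0.186, adjusted p = 0.00813) on the log2 scale in MYC/REG3A tumours and by 1.17 (SE 0.186, adjusted p = 0.00344) in MYC tumours. The 4 MYC/REG3A non-tumour livers lay between 5.86 and 5.90, below all 4 MYC non-tumour livers. Birc5, survivin, rose by 1.43 (SE 0.249, adjusted p = 0.017) in MYC/REG3A tumours and by 1.11 (SE 0.249, adjusted p = 0.014) in MYC tumours. Cdca8, borealin, rose by 0.63 in MYC/REG3A tumours and 0.85 in MYC tumours, and the scaffold Incenp by 0.66 in MYC/REG3A tumours and 0.64 in MYC tumours.

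At the kinetochore, where chromosomes meet microtubules, 5 of 7 genes rose in MYC/REG3A tumours and 6 of 7 in MYC tumours. Ndc80 and Nuf2 encode the arm of the NDC80 complex that grips microtubules. Ndc80 had log2 levels of 6.90, 5.08, 5.41 and 5.74 in the tumours of MYC/REG3A mice 1 to 4, against 4.18, 4.19, 4.22 and 4.22 in their non-tumour livers. In MYC mice, Ndc80 had levels of 6.01, 5.18, 5.20 and 6.55 in the tumours, against 5.11, 4.49, 3.96 and 5.06 in the non-tumour livers. Ndc80 rose by 1.58 (SE 0.258, adjusted p = 0.0136) on the log2 scale in MYC/REG3A tumours and by 1.08 (SE 0.258, adjusted p = 0.0181) in MYC tumours. The non-tumour livers of MYC mice 1 and 4 had more Ndc80 than the other 6 non-tumour livers. Nuf2 rose by 1.36 (SE 0.338, adjusted p = 0.0469) in MYC/REG3A tumours and by 1.23 (SE 0.338, adjusted p = 0.0323) in MYC tumours. Spc24 and Spc25 form the other end of the same complex. Spc24 rose by 0.72 in MYC/REG3A tumours and 0.86 in MYC tumours, and here MYC/REG3A tumour 1 was the lowest of its group, at 6.42, not the highest. Spc25 changed by 0.92 (SE 0.275, adjusted p = 0.0836) in MYC/REG3A mice, short of the threshold, and rose by 1.17 (SE 0.275, adjusted p = 0.0168) in MYC tumours. The kinetochore motor Cenpe rose by 1.30 in MYC/REG3A tumours and 0.89 in MYC tumours, and Cenpf by 0.76 in MYC/REG3A tumours and 0.70 in MYC tumours. Cenpa is the histone variant that marks centromeres. Cenpa had log2 levels of 7.71, 6.80, 6.94 and 7.31 in the tumours of MYC/REG3A mice 1 to 4, against 6.14, 6.58, 6.56 and 6.34 in their non-tumour livers. In MYC mice, Cenpa had levels of 6.77, 6.82, 6.61 and 7.32 in the tumours, against 6.37, 6.39, 5.79 and 6.39 in the non-tumour livers. Cenpa had a difference of 0.78 (SE 0.202, adjusted p = 0.0527) between tumour and non-tumour liver in MYC/REG3A mice and of 0.65 (SE 0.202, adjusted p = 0.0522) in MYC mice. The Cenpa groups did not overlap in either genotype, although both tests just missed the threshold.

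Of the 9 spindle motors and assembly factors, 6 rose in MYC/REG3A tumours and 8 in MYC tumours. Kif11, the Eg5 motor, pushes the spindle poles apart. Kif11 had log2 levels of 7.43, 5.90, 5.90 and 6.38 in the tumours of MYC/REG3A mice 1 to 4, against 4.50, 4.68, 4.84 and 4.64 in their non-tumour livers. In MYC mice, Kif11 had levels of 6.70, 6.41, 5.99 and 7.29 in the tumours, against 5.37, 4.90, 4.52 and 5.03 in the non-tumour livers. Kif11 rose by 1.74 (SE 0.277, adjusted p = 0.0128) on the log2 scale in MYC/REG3A tumours and by 1.64 (SE 0.277, adjusted p = 0.00426) in MYC tumours. All 8 tumours lay above all 8 non-tumour livers. Tpx2, which activates Aurora A on the spindle, rose by 1.90 (SE 0.314, adjusted p = 0.0142) in MYC/REG3A tumours and by 1.73 (SE 0.314, adjusted p = 0.00568) in MYC tumours. Hmmr, a spindle protein, rose by 1.46 in MYC/REG3A tumours and 1.30 in MYC tumours. It was under the array's lower quartile in 4 of 4 MYC/REG3A and 2 of 4 MYC non-tumour livers, so the size of its rise rests on low values. The microtubule-shortening Kif2c rose by 1.13 in MYC/REG3A tumours and 1.15 in MYC tumours, Kif18b by 0.92 in MYC/REG3A tumours and 0.92 in MYC tumours and the chromosome-arm motor Kif22 by 0.94 in MYC/REG3A tumours and 1.25 in MYC tumours. Kif15, which can stand in for Kif11, and Kif18a, which aligns chromosomes, passed the test in MYC mice, and the difference between genotypes was not called for either. Kif15 had a difference of 0.48 (SE 0.175, adjusted p = 0.144) between tumour and non-tumour liver in MYC/REG3A mice and of 0.66 (SE 0.175, adjusted p = 0.0289) in MYC mice. Kif18a had a difference of 0.34 (SE 0.21, adjusted p = 0.405) between tumour and non-tumour liver in MYC/REG3A mice and of 0.74 (SE 0.21, adjusted p = 0.0372) in MYC mice. MYC tumour 4 had the highest level of both genes among the 8 tumours. Kif4, another chromosome-arm motor, did not pass in either genotype. Kif4 had log2 levels of 4.53, 3.70, 4.03 and 3.76 in the tumours of MYC/REG3A mice 1 to 4, against 3.65, 3.66, 3.68 and 3.70 in their non-tumour livers. In MYC mice, Kif4 had levels of 3.95, 3.76, 3.57 and 4.43 in the tumours, against 3.78, 3.78, 3.45 and 3.53 in the non-tumour livers. Kif4 had a difference of 0.33 (SE 0.174, adjusted p = 0.316) between tumour and non-tumour liver in MYC/REG3A mice and of 0.29 (SE 0.174, adjusted p = 0.302) in MYC mice. Apart from MYC/REG3A tumours 1 and 3 and MYC tumours 1 and 4, every Kif4 level lay at or below 3.78, and some non-tumour livers were under the array's lower quartile.

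Of the 7 genes of the central spindle and cytokinesis, 5 rose in each genotype. Kif20a, a motor that moves Aurora B to the midzone, had together with Ect2 the largest changes of the group. Kif20a had log2 levels of 8.67, 6.44, 6.87 and 7.77 in the tumours of MYC/REG3A mice 1 to 4, against 5.10, 5.16, 5.25 and 5.24 in their non-tumour livers. In MYC mice, Kif20a had levels of 6.94, 7.18, 6.93 and 8.0 in the tumours, against 5.75, 4.91, 5.29 and 5.37 in the non-tumour livers. Kif20a rose by 2.25 (SE 0.352, adjusted p = 0.0123) on the log2 scale in MYC/REG3A tumours and by 1.93 (SE 0.352, adjusted p = 0.00569) in MYC tumours. No Kif20a level in a non-tumour liver reached that of any tumour. Ect2 is the exchange factor that switches on RhoA to form the contractile ring. Ect2 had log2 levels of 9.09, 7.75, 7.83 and 8.51 in the tumours of MYC/REG3A mice 1 to 4, against 5.13, 6.84, 6.73 and 5.45 in their non-tumour livers. In MYC mice, Ect2 had levels of 8.40, 8.08, 7.41 and 8.77 in the tumours, against 6.50, 7.20, 5.63 and 5.91 in the non-tumour livers. Ect2 rose by 2.26 (SE 0.489, adjusted p = 0.031) on the log2 scale in MYC/REG3A tumours and by 1.85 (SE 0.489, adjusted p = 0.0273) in MYC tumours. Ect2 varied among non-tumour livers, with MYC mouse 2 and MYC/REG3A mice 2 and 3 the highest, and its SE was the largest of the 54 genes. Racgap1, which with Kif23 makes up the centralspindlin complex, rose by 2.11 in MYC/REG3A tumours and 1.70 in MYC tumours. Kif23, the motor of that complex, behaved otherwise. Kif23 had log2 levels of 6.24, 4.54, 4.96 and 5.06 in the tumours of MYC/REG3A mice 1 to 4, against 4.75, 4.34, 4.86 and 4.48 in their non-tumour livers. In MYC mice, Kif23 had levels of 5.04, 4.42, 4.92 and 5.79 in the tumours, against 5.33, 4.25, 4.75 and 5.44 in the non-tumour livers. Within mice the change of Kif23 was 1.49, 0.20, 0.10 and 0.58 in MYC/REG3A mice, against -0.29, 0.18, 0.17 and 0.35 in MYC mice. The Kif23 groups overlapped in both genotypes, with MYC/REG3A tumour 1 the one high value. Kif23 had a difference of 0.59 (SE 0.206, adjusted p = 0.124) between tumour and non-tumour liver in MYC/REG3A mice and of 0.10 (SE 0.206, adjusted p = 0.799) in MYC mice. Prc1, which bundles midzone microtubules, rose by 1.83 in MYC/REG3A tumours and 1.55 in MYC tumours, and Anln, anillin of the contractile ring, by 1.85 in MYC/REG3A tumours and 1.65 in MYC tumours. Kif20b had changes of 0.64 (SE 0.244, adjusted p = 0.158) in MYC/REG3A mice and 0.62 (SE 0.244, adjusted p = 0.111) in MYC mice.

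Condensin, which compacts the chromosomes, and topoisomerase II alpha, which untangles them, rose without exception among the 5 genes measured. Top2a had log2 levels of 6.91, 5.88, 5.60 and 6.03 in the tumours of MYC/REG3A mice 1 to 4, against 4.64, 4.53, 4.63 and 4.61 in their non-tumour livers. In MYC mice, Top2a had levels of 6.75, 6.09, 6.03 and 6.97 in the tumours, against 5.47, 4.50, 4.45 and 5.02 in the non-tumour livers. Top2a rose by 1.50 (SE 0.186, adjusted p = 0.00779) on the log2 scale in MYC/REG3A tumours and by 1.60 (SE 0.186, adjusted p = 0.00131) in MYC tumours. The non-tumour livers of MYC mice 1 and 4 had more Top2a than the other 6, and every tumour had more than any of them. Ncaph rose by 1.44 (SE 0.252, adjusted p = 0.0173) in MYC/REG3A tumours and by 1.32 (SE 0.252, adjusted p = 0.00695) in MYC tumours. Ncapd2 rose by 0.72 in MYC/REG3A tumours and 0.96 in MYC tumours. The ATPase subunits rose too, Smc2 by 0.83 in MYC/REG3A tumours and 0.75 in MYC tumours and Smc4 by 1.01 in MYC/REG3A tumours and 1.45 in MYC tumours.

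Mki67 encodes Ki-67, the standard marker of cycling cells. Mki67 had log2 levels of 8.83, 7.39, 7.56 and 7.86 in the tumours of MYC/REG3A mice 1 to 4, against 6.09, 6.19, 6.09 and 6.01 in their non-tumour livers. In MYC mice, Mki67 had levels of 8.31, 7.76, 7.81 and 8.76 in the tumours, against 7.50, 6.20, 6.21 and 6.90 in the non-tumour livers. Mki67 rose by 1.81 (SE 0.239, adjusted p = 0.00827) on the log2 scale in MYC/REG3A tumours and by 1.46 (SE 0.239, adjusted p = 0.00386) in MYC tumours. The tumours exceeded all non-tumour livers of their genotype, and the non-tumour livers of MYC mice 1 and 4 were the highest of the 8. Foxm1, a transcription factor that drives mitotic genes, rose by 0.95 (SE 0.158, adjusted p = 0.0144) in MYC/REG3A tumours and by 0.62 (SE 0.158, adjusted p = 0.0233) in MYC tumours, below the median of the 54 genes in each genotype. Mybl2 encodes B-MYB, another activator of mitotic genes. Mybl2 had log2 levels of 5.12, 5.05, 5.20 and 5.13 in the tumours of MYC/REG3A mice 1 to 4, against 5.27, 5.43, 4.99 and 5.21 in their non-tumour livers. In MYC mice, Mybl2 had levels of 5.49, 5.45, 5.39 and 5.41 in the tumours, against 5.27, 5.17, 5.16 and 5.15 in the non-tumour livers. Mybl2 had a difference of -0.10 (SE 0.0938, adjusted p = 0.607) between tumour and non-tumour liver in MYC/REG3A mice and of 0.25 (SE 0.0938, adjusted p = 0.098) in MYC mice. In MYC mice each tumour stood above all the non-tumour livers by a small step, while in MYC/REG3A mice the groups overlapped. Mybl2 was the 1 gene of the 54 with several rows, and its other row, at lower levels, did not follow the row used here. In that row, levels were 4.64, 4.36, 4.69 and 4.57 in MYC/REG3A tumours, against 4.48, 4.27, 4.38 and 4.27 in their non-tumour livers. In MYC mice that row had 4.40, 4.46, 4.26 and 4.36 in tumours, against 4.25, 4.44, 4.83 and 4.43 in non-tumour livers.

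**Figure D4:**
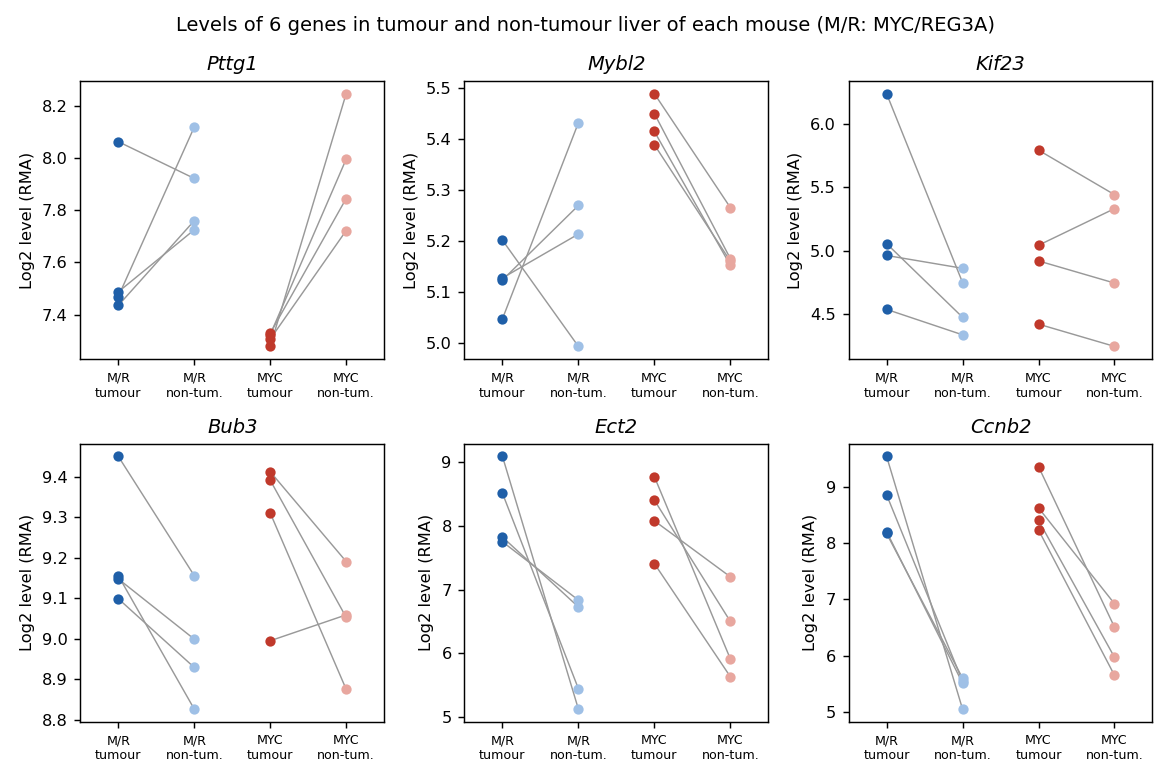
Log2 levels of Pttg1, Mybl2, Kif23, Bub3, Ect2 and Ccnb2 in tumour and non-tumour liver, with a line joining the samples of a mouse (4 mice per genotype, separate vertical axis per gene, none starting at 0). Pttg1 is lower in tumours of all mice but MYC/REG3A mouse 2, Kif23 and Bub3 overlap between tissues, and Ccnb2 separates without overlap.

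The genotypes were then set against each other, which addresses whether REG3A altered the mitotic genes. The tumour change did not pass the test of a difference between genotypes for any of the 54 genes, nor for any of all 22180 genes (0.0% called in limma), and the smallest adjusted p among the 54 was 0.926. At an unadjusted p under 0.05 there were 0 genes with a larger change and 1, Mybl2, with a smaller change in MYC/REG3A mice, where 2.71% of all genes had a larger change and 2.52% a smaller one at that level. The difference for Mybl2 was -0.35 (SE 0.133, unadjusted p = 0.0261, adjusted p = 0.926) in the row used, and its other row leaned the opposite way. For Ccnb2 it was 0.88 (SE 0.415, adjusted p = 0.926), and for Pttg1 0.38 (SE 0.186, adjusted p = 0.928). The SE of this difference ranged from 0.13 to 0.692 over the 54 genes, with a median of 0.328, so that differences of this order could not be detected with 4 mice per genotype. The median difference was 0.049, and its sign depended on single animals: it was -0.003 without MYC mouse 1, -0.16 without MYC/REG3A mouse 1, 0.24 without MYC/REG3A mouse 2, 0.15 without MYC/REG3A mouse 3, 0.24 without MYC mouse 4 and 0.34 without MYC/REG3A mice 2 and 4. None of these fits called any of the 54 genes (0 in each).

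Among tumours alone, 3 of all genes differed between MYC/REG3A and MYC mice (0.0135%), and 0 of the 54 did. The number over all genes was 89 without MYC/REG3A mouse 1, 23 without MYC mouse 2 and 13 without MYC mouse 3, with 0 of the 54 in each. At an unadjusted p under 0.05 there were 1 higher gene and 2 lower ones, or 3 of 54, beside 8.96% of all genes at that level, a share no lower than theirs. Mybl2 had levels of 5.12, 5.05, 5.20 and 5.13 in MYC/REG3A tumours, against 5.49, 5.45, 5.39 and 5.41 in MYC tumours, a difference of -0.31 (SE 0.0804, adjusted p = 0.3). The other row of Mybl2 leaned the opposite way and overlapped, with 4.64, 4.36, 4.69 and 4.57 against 4.40, 4.46, 4.26 and 4.36. Pttg1 had levels of 7.44, 8.06, 7.47 and 7.49 in MYC/REG3A tumours, against 7.33, 7.32, 7.28 and 7.31 in MYC tumours, a difference of 0.31 (SE 0.141, adjusted p = 0.549). Mybl2 and Pttg1 were the 2 genes whose tumour levels did not overlap in the rows used, where 2.07% of all genes were higher without overlap and 1.48% lower. Smc4 differed by -0.55 (SE 0.245, adjusted p = 0.544), with overlapping levels. The median difference of the 54 genes was -0.063 in tumours, -0.30 without MYC/REG3A mouse 1, 0.1 without MYC/REG3A mouse 2, 0.01 without MYC/REG3A mouse 3, 0.098 without MYC mouse 4 and 0.15 without MYC/REG3A mice 2 and 4, so that its sign rested on single animals.

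In non-tumour liver, 0 of the 54 genes and 0 of all genes (0.0%) passed the test between genotypes, and 41 of the 54 genes had a lower mean in MYC/REG3A mice, beside 47.8% of all genes. The median difference was -0.13, and -0.047 without MYC mouse 1, whose non-tumour liver was the highest of its group for most genes. Ccnb2 had levels of 5.05, 5.60, 5.51 and 5.55 in MYC/REG3A non-tumour livers, against 6.92, 5.97, 5.65 and 6.51 in MYC non-tumour livers. The Ccnb2 difference was -0.84 (SE 0.328, unadjusted p = 0.0221, adjusted p = 0.933), and Ccnb2 was the 1 gene of the 54 with an unadjusted p under 0.05, beside 5.22% of all genes. There were 4 genes, Ccnb2, Cdc25b, Aurkb and Mki67, with all MYC/REG3A livers below all MYC livers, against 1.73% of all genes.

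The wider cell cycle was read from 8 lists of related genes, of which 126 of 133 genes had a row. Of these, 31 rose and 1 fell in MYC/REG3A tumours, while 52 rose and 8 fell in MYC tumours, with the shares of all genes as given above. Replication genes rose most often, 9 of 22 in MYC/REG3A mice and 14 of 22 in MYC mice, with the helicase subunits Mcm6 at 1.78 in MYC/REG3A tumours and 2.22 in MYC tumours and Mcm2 at 1.4 in MYC/REG3A tumours and 1.37 in MYC tumours. Of the subunits of the anaphase-promoting complex and its inhibitor, 1 of 16 rose in MYC/REG3A mice and 3 of 16 in MYC mice, near the shares of all genes. Anapc13 changed by 0.53 in MYC/REG3A tumours and 0.51 in MYC tumours, and Cdc23 by 0.29 in MYC/REG3A tumours and 0.67 in MYC tumours, the last passing only in MYC mice. Constitutive centromere genes and genes of the KNL1 and MIS12 complexes rose in 4 of 17 cases in MYC/REG3A mice and in 9 of 17 in MYC mice, where Zwint fell by 0.51. Cenpn, a reader of centromeric chromatin, rose by 1.4 in MYC/REG3A tumours and 1.05 in MYC tumours.

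Cohesin, the ring that ties sister chromatids, gave 4 rises in 13 genes in MYC/REG3A mice, and 5 rises with 2 falls in MYC mice. Esco2, which makes cohesion stable, rose by 1.89 in MYC/REG3A tumours and 1.60 in MYC tumours, and Sgo2a, a protector of cohesin, by 0.88 in MYC/REG3A tumours and 0.74 in MYC tumours. Stag2 had changes of -0.31 in MYC/REG3A tumours and -0.65 in MYC tumours and Wapl, which opens the ring, of -0.28 in MYC/REG3A tumours and -0.67 in MYC tumours, both passing only in MYC mice. Centrosome genes gave 4 rises in 17 in MYC/REG3A mice and 8 in MYC mice, among them the augmin subunit Haus1, which rose by 0.72 in MYC/REG3A tumours and 1.04 in MYC tumours. No gene of the anaphase-promoting complex or centrosome lists fell.

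G1 regulators moved both ways. Cdc25a, the phosphatase of S-phase entry, rose by 0.94 in MYC/REG3A tumours and 1.45 in MYC tumours. Ccne1, cyclin E1, had changes of 0.89 (SE 0.334, adjusted p = 0.154) in MYC/REG3A mice and 1.95 (SE 0.334, adjusted p = 0.00456) in MYC mice. The D-type cyclins Ccnd1 and Ccnd2 fell in MYC tumours. The changes of Ccnd1 were -1.04 (SE 0.423, adjusted p = 0.185) in MYC/REG3A mice and -1.50 (SE 0.423, adjusted p = 0.0354) in MYC mice. Cdkn1a, the CDK inhibitor p21 and a brake on the cycle, rose by 1.96 (SE 0.177, adjusted p = 0.00372) in MYC/REG3A tumours and by 2.51 (SE 0.177, adjusted p = 0.000383) in MYC tumours, alongside the mitotic genes. It was the 1 of 11 inhibitors and brakes that passed in MYC/REG3A mice, against 3 of 11 in MYC mice. Among 21 genes of the E2F, pocket protein and DREAM group, 5 rose and 1 fell in MYC/REG3A tumours, with 5 and 2 in MYC tumours. Rbl2, which encodes the p130 protein of the DREAM complex in resting cells, had changes of -0.65 (SE 0.102, adjusted p = 0.0123) in MYC/REG3A tumours and -0.75 (SE 0.102, adjusted p = 0.00189) in MYC tumours. The E2F partner Tfdp1 rose by 0.93 in MYC/REG3A tumours and 0.99 in MYC tumours.

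Markers of other cells that can divide or mix into dissected liver moved the other way or not past the test. Of 50 genes in 8 lists (T cells, B and plasma cells, macrophages, neutrophils, erythroid precursors, sinusoidal endothelium, stellate cells and bile duct), 0 rose in either genotype, 11 fell in MYC/REG3A tumours and 24 fell in MYC tumours. Of all genes, 4.04% rose and 2.34% fell in MYC/REG3A tumours, and 10.4% rose and 9.54% fell in MYC tumours. The summed T cell markers were 7.44 to 8.0 in MYC/REG3A tumours, 7.58 to 8.16 in MYC/REG3A non-tumour livers, 7.23 to 8.29 in MYC tumours and 7.40 to 9.11 in MYC non-tumour livers. The summed macrophage markers were 10.16 to 11.45 in MYC/REG3A tumours, 11.85 to 12.20 in MYC/REG3A non-tumour livers, 10.97 to 11.67 in MYC tumours and 11.48 to 12.94 in MYC non-tumour livers. Some markers were highest in the tumours of MYC/REG3A mice 2 and 4. Endothelial Rspo3 was 7.04 and 6.39 there, against 5.26 to 5.82 in the other tumours. Reln of stellate cells was 8.92 and 7.89, against 5.56 to 7.42. The macrophage marker Cd68 ran the other way, at 8.66 and 8.83, against 8.84 to 10.19. Of 8 hepatocyte markers, 0 rose, with 1 lower in MYC/REG3A tumours and 3 lower in MYC tumours. What part these shifts in cell makeup had in the mitotic levels was not tested.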

How the data were processed

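Transcript levels were measured with Affymetrix arrays in paired tumour and non-tumour liver of 8 mice. The deposited log2 values were made by the authors with RMA, for which the submitters' processing notes name Affymetrix Expression Console 1.4.1. The settings and the log base are not given in the sources used here, and the values' range is that of log2. No detection calls came with them, so it is not known which low values stand above background. Precision is limited by the number of arrays. Of 41345 rows, 23521 had 1 gene symbol in the platform annotation, 1814 several and 16010 none, and 23328 matched RefSeq (GRCm38.p6) by Entrez ID, with 0 symbols changed. The row with the highest mean over 16 arrays stood for each of 22180 genes.

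The test was limma's lmFit and eBayes (version 3.58.1, R 4.3.3, 2-sided) on all 16 arrays and with no filter, adjusted by Benjamini-Hochberg over all genes at a threshold of 0.05. Standard errors rest on a spread pooled over all groups. Tumour and non-tumour liver, and the difference of their changes, were compared with the mouse as a block, since the labels give both samples of a mouse as 1 pair; deviations from the group means of paired arrays correlated at 0.0766 to 0.282 over all genes. Genotypes were compared with the 4 group means and no block, because they are different mice. The code was tested on simulated data.

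Genes named with values, as levels on every array or as changes, were the 2 with the largest mean change in each role, those not called higher in both tumour comparisons, the 3 with the lowest p between genotypes and up to 2 of each related list; other genes named were chosen after their values were seen. The gene list, the related lists and the tests were chosen with earlier results of these data known. Alternatives were another block, 2 filters, the mean over a gene's rows, a trend and robust prior, median centring, each mouse left out, MYC/REG3A mice 2 and 4 left out, and a fit of only the groups compared. Promoter windows came from RefSeq.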

Additional observations from a re-analysis of the deposited data

Results flagged for a closer look

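In 11 of 136 groups of 4 arrays tested, 1 array lay far from the other 3 by the Dixon criterion for 4 samples, and chance alone gives about 1 such group in 20. The groups use the same arrays and many of the genes moved together, so these shares cannot be weighed against each other. MYC tumour 4 was high for Plk1 at 8.65 (others 7.54 to 7.67), for Ube2c at 8.65 (others 7.69 to 7.81) and for Ncaph at 6.62 (others 5.57 to 5.70). The non-tumour liver of MYC/REG3A mouse 1, whose tumour was the highest of its group for 49 of the 54 genes, was low for Ccnb2 at 5.05 (others 5.51 to 5.601), for Cdk1 at 5.14 (others 6.06 to 6.24) and for Cdc25b at 4.81 (others 4.95 to 4.97). MYC/REG3A tumour 1 was high for Bub3 at 9.45 (others 9.10 to 9.16). MYC/REG3A tumour 2 was high for Pttg1 at 8.06 (others 7.44 to 7.49). The non-tumour liver of MYC/REG3A mouse 4 was high for Aurkb at 5.90 (others 5.86 to 5.87), a gap of a few hundredths. The non-tumour liver of MYC mouse 3 was low for Cenpa at 5.79 (others 6.37 to 6.39), and that of MYC mouse 1 was high for Mybl2 at 5.27 (others 5.15 to 5.17). What set these arrays apart was not tested.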

How the results depend on the processing

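The median tumour changes of the 54 genes kept their sign under every alternative run. The number of genes past the threshold in MYC/REG3A mice ranged from 14 to 41 when 1 MYC/REG3A mouse was left out, with 144 to 1393 of all genes called, and fewer arrays enter those fits. In MYC mice it ranged from 33 to 41 when 1 MYC mouse was left out, with 2793 to 3790 of all genes called. Both numbers were lowest without mouse 4. Of the calls, 10 of 41 in MYC/REG3A mice (Aurkb, Ccna2, Ccnb2, Kif11, Kif20a, Mki67, Plk1, Prc1, Racgap1 and Top2a) and 33 of 46 in MYC mice passed with each mouse of that genotype left out in turn. With no replicate block 42 genes passed in MYC/REG3A mice and 47 in MYC mice, beside 6.25% and 19.3% of all genes. With the block as a random effect 43 and 48 passed, beside 7.72% and 21.2%. The fit of only the groups compared called 33 and 44, beside 4.37% and 15.5%. With a filter on genes above the array median in at least 4 of 16 arrays, 42 of 50 and 46 of 50 genes passed, where 12.5% and 33.2% of the genes kept were called. Mybl2 changed sign in MYC/REG3A mice, to 0.057 with the mean over its 2 rows and to 0.031 without mice 2 and 4; the cause was not tested beyond the rows disagreeing.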

Other observations

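Words in the promoter were also counted by call. Among the 32 genes with a window that rose in both genotypes, 24 had a CCAAT, 24 a TTTGAA and 21 both. Among the 13 others with a window, 7 had a CCAAT, 8 a TTTGAA and 6 both, and these numbers were not tested. Kif23 and Bub3, which did not pass in either genotype, have both words in their windows. E2f8, an E2F family member that represses its targets, was a gene of the wider lists whose values differed by genotype in size: its tumour change was 1.32 in MYC/REG3A mice (SE 0.225, adjusted p = 0.0152 in limma) and 0.33 in MYC mice (SE 0.225, adjusted p = 0.374), and the difference between genotypes did not pass the test over all genes. E2f8 was picked out after its values were seen.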
